A study of Mus musculus with 12 samples.

Results

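The CCN genes encode secreted matricellular proteins, which sit in the extracellular matrix and signal to cells without building the matrix itself. The 5 members examined in perfused mouse hearts were Cyr61, Ctgf, Nov, Wisp1 and Wisp2, known under newer symbols as Ccn1 to Ccn5 in that order. They were taken by gene symbol from the 52858 genes listed for all hearts, and all 5 were among the 15240 genes with enough reads to test. The sixth family gene, Wisp3, was listed but held 0 to 6 reads per library and was not tested.

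The hearts came from male C57BL/6J mice and from Slit2-Tg mice, aged 3 to 5 months. Slit2-Tg mice carried a full-length human Slit2 cDNA behind the CMV promoter, which is not restricted to a tissue, and the line was made in C57 × CBA F1 oocytes and screened as heterozygotes. Each heart was perfused through the aorta on a Langendorff apparatus. The C57-IR and Slit2-IR hearts had 20 min of stable perfusion, 20 min of global ischemia without flow and 40 min of reperfusion. The C57-non-IR and Slit2-non-IR hearts were perfused for 80 min without ischemia. There were 3 libraries of independent samples in each of the 4 groups, 12 in all, and IR or non-IR was read from the second letter of the library titles, I or C, which the labels do not spell out.

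A CCN protein is a string of modules, an insulin-like growth factor binding module, a von Willebrand factor type C repeat, a thrombospondin type 1 repeat and, in most members, a cysteine knot at the C-terminus. These modules bind integrins, heparan sulfate proteoglycans such as syndecan-4 and growth factors of the TGF-beta and VEGF families. Cyr61 and Ctgf are best known as genes switched on within minutes to hours by serum and stretch, through YAP/TAZ with TEAD factors and through SRF. Nov is known from vessels and smooth muscle, Wisp1 as a target of Wnt signalling, and Wisp2 as the member that lacks the C-terminal cysteine knot and opposes Ctgf in models of cardiac fibrosis.

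On GRCm38, Cyr61 (ENSMUSG00000028195) lies at chr3:145646976-145649981 on the minus strand and Ctgf (ENSMUSG00000019997) at chr10:24595442-24598683 on the plus strand. Nov (ENSMUSG00000037362, chr15:54745702-54754039) and Wisp1 (ENSMUSG00000005124, chr15:66891320-66923201) share a chromosome, and Wisp2 (ENSMUSG00000027656) lies at chr2:163820861-163833146, all 3 on the plus strand. The longest coding transcript of each had 5 exons in GENCODE M21. Its coding length, without the stop codon, was 1137 bases for Cyr61, 1044 for Ctgf, 1062 for Nov, 1101 for Wisp1 and 753 for Wisp2, so Wisp2 had the shortest. Ctgf is overlapped by the antisense gene Gm15270, which held at most 38 reads in a library against 713 to 6839 for Ctgf.

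A RefSeq promoter window was found for 1 of the 5 members, Cyr61, which is shown here. None was found for Ctgf, Nov, Wisp1 or Wisp2, so their promoters were not searched. The window runs from 250 bases before to 50 after the start of the gene, and the part before the start is given 5′ to 3′ for the minus strand of chr3:145649986-145650235 (GRCm38.p6), with capitals marking the match to the TEAD motif GGAATG, read on the opposite strand.
Cyr61 promoter: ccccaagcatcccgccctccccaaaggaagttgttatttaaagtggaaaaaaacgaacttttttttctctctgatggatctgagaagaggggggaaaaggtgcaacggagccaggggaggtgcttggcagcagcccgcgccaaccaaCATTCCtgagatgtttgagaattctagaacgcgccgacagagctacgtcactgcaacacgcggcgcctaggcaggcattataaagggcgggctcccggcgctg
The match begins 103 bases before the start, and 14.66% of 32851 RefSeq windows of the same length held this motif on either strand. No match was found in the window for the AP-1 motif TGANTCA, the hypoxia motif ACGTG, the SMAD motif CAGACA or the SRF-binding CArG box, which were held by 7.808%, 19.62%, 21.04% and 1.629% of all windows. These are matches of letters and not measured binding.

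Cyr61 was the most abundant CCN transcript in every heart. Levels are FPKM, reads per kilobase of gene scaled by a factor for each library, so they can be compared between genes. Cyr61 made up 80.3% to 86.2% of the summed FPKM of the 5 members, and Ctgf 8.46% to 17.4%. The order of group means was Cyr61, Ctgf, Wisp2, Nov, Wisp1 and Wisp3 in all 4 groups. Neighbours in that order did not overlap between libraries, with these exceptions: Wisp2 and Nov overlapped in C57-IR, and Wisp1 and Wisp3 overlapped in C57-IR and Slit2-non-IR. The summed FPKM of the 5 members was 221 to 233 in C57-non-IR, 371 to 723 in C57-IR, 142 to 279 in Slit2-non-IR and 445 to 680 in Slit2-IR.

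**Figure D1:**
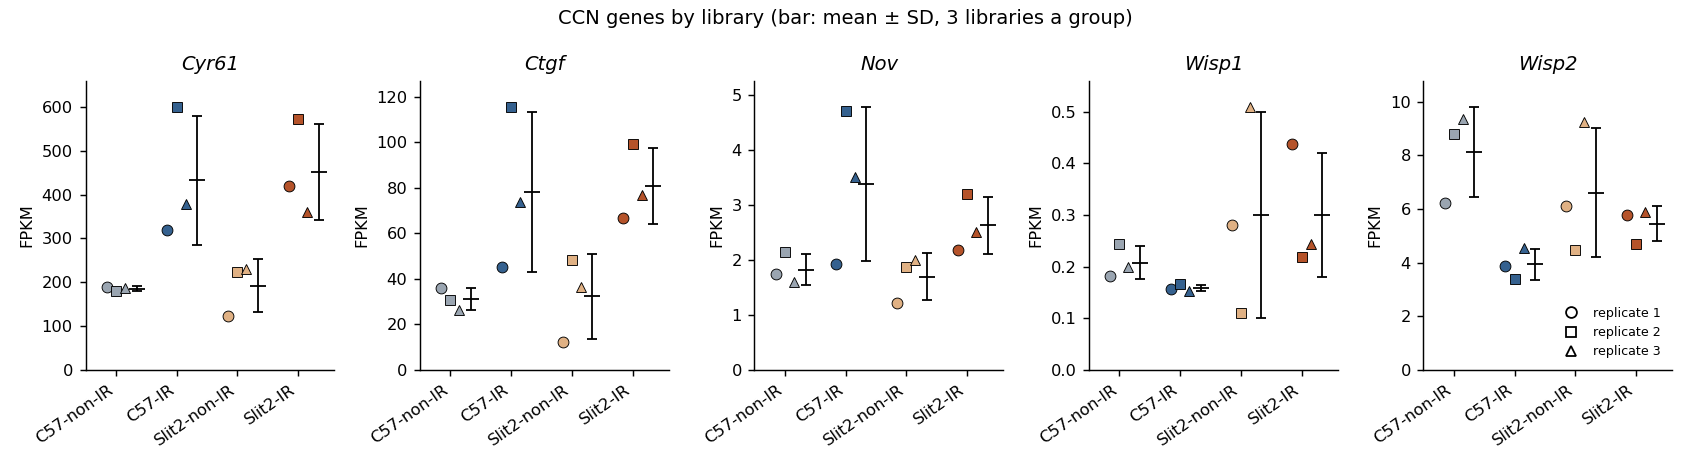
FPKM (vertical axes, from 0) of each CCN gene in the 12 libraries by group, with circles, squares and triangles for replicates 1, 2 and 3 and bars for the mean ± SD. Every IR heart was above every non-IR heart for Cyr61, the 3 C57-IR hearts were the lowest group for Wisp2 by mean, and Wisp1 stayed under 0.51 FPKM.

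Libraries held 16601154 to 24841291 reads on genes. Replicate 1 of each group stood farther from the other 2 of its group (chi-square per gene 35.9 to 54.3 over 8 pairs) than replicates 2 and 3 stood from each other (8.66 to 39.5 over 4 pairs), so results below are also given from replicates 2 and 3 where they change. The labels name no batch. Markers of cardiomyocytes summed to 10900 to 16826 FPKM in every library. The atrial markers Myl7, Myl4, Sln and Nppa summed to 1650 FPKM in Slit2-IR replicate 1 and to 19.9 to 227 in the other 11 libraries. Mouse Slit2 was at 0.195 ± 0.0233 FPKM in C57-non-IR, 0.243 ± 0.0348 in C57-IR, 0.178 ± 0.00799 in Slit2-non-IR and 0.350 ± 0.402 in Slit2-IR (SD, n = 3), which does not check the labels because the transgene is human.

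The first question was how IR altered the CCN genes. Over both genotypes, Cyr61 and Ctgf were higher after IR and passed the corrected threshold. Nov (log2 difference 0.51), Wisp2 (-0.54) and Wisp1 (-0.03) did not pass it. Tests were limma fits of log2(FPKM + 1) over all 15240 genes, with Benjamini-Hochberg adjusted p under 0.05 as the call. In the IR comparison over both genotypes, 2 of the 5 members were called, both higher, beside 3.49% of all tested genes called in either direction and 2.34% called higher.

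Cyr61, an integrin ligand made by many cardiac cell types under stress, was at 189, 179 and 188 FPKM in the 3 C57-non-IR hearts and at 320, 599 and 378 FPKM in the C57-IR hearts. In Slit2-Tg hearts it was at 122, 224 and 230 FPKM without ischemia and at 420, 573 and 360 FPKM after IR. All 6 IR hearts lay above all 6 non-IR hearts, which 2.23% of tested genes also showed in this direction. Its mean was 185 ± 5.20 FPKM in C57-non-IR against 432 ± 147 FPKM in C57-IR, and 192 ± 60.5 FPKM in Slit2-non-IR against 451 ± 110 FPKM in Slit2-IR (SD, n = 3). Mean FPKM was 2.34-fold higher after IR in C57BL/6J and 2.35-fold higher in Slit2-Tg hearts. Over both genotypes the log2 difference was 1.21 (SE 0.20, 95% interval 0.78 to 1.64), with a limma adjusted p of 0.00702 and an exact permutation p of 0.005, the smallest that 400 relabelings within genotype allow. The call held under all 20 alternative settings, with adjusted p from 0.00297 to 0.0260.

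Ctgf, the profibrotic member that binds TGF-beta and is a target of it, was at 36.1, 30.7 and 26.4 FPKM in C57-non-IR and at 45.3, 115 and 73.9 FPKM in C57-IR. It was at 12, 48.5 and 36.4 FPKM in Slit2-non-IR and at 66.7, 99.3 and 76.6 FPKM in Slit2-IR. Within each genotype the IR hearts lay above the non-IR hearts, but C57-IR replicate 1 was under Slit2-non-IR replicate 2. Mean FPKM was 2.52-fold higher after IR in C57BL/6J and 2.50-fold higher in Slit2-Tg hearts. The log2 difference over both genotypes was 1.35 (SE 0.31, 95% interval 0.66 to 2.04, limma adjusted p = 0.0420, exact permutation p = 0.005). That call was near the threshold and was kept in 10 of 20 alternatives, with adjusted p up to 0.109. It was lost on leaving out any single library other than C57-IR replicate 1, Slit2-non-IR replicate 1 and Slit2-non-IR replicate 2 (adjusted p = 0.0588 to 0.103), and also when genes with low counts were added to the test (adjusted p = 0.109). From replicates 2 and 3 alone the difference was 1.35 with an adjusted p of 0.0117.

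Nov, which is linked to the vessel wall, was near 2 FPKM or below in hearts without ischemia. It was at 1.74, 2.13 and 1.59 FPKM in C57-non-IR and at 1.92, 4.70 and 3.51 FPKM in C57-IR. It was at 1.21, 1.87 and 2.0 FPKM in Slit2-non-IR and at 2.18, 3.2 and 2.50 FPKM in Slit2-IR. The C57BL/6J groups overlapped through C57-IR replicate 1, and the Slit2-Tg groups did not overlap. With group means subtracted, Nov correlated over the 12 libraries with the log2 summed FPKM of fibroblast (0.715), leukocyte (0.679), endothelial (0.666) and adipocyte (0.660) markers. It correlated at -0.656 with those of cardiomyocytes and at -0.361 with those of smooth muscle. Tendon and valve (0.274), mesothelial (0.199), red blood cell (0.117) and atrial (0.056) markers made up the rest. Ctgf had the same signs for fibroblast (0.488), leukocyte (0.459), endothelial (0.607), adipocyte (0.547) and cardiomyocyte (-0.567) markers, so these were not particular to Nov. Per 100 FPKM of summed fibroblast markers, Nov ran from 0.598 to 1.02 FPKM in C57-non-IR and from 1.08 to 1.5 FPKM in C57-IR, without overlap, but from 0.529 to 0.757 FPKM in Slit2-non-IR and from 0.735 to 1.05 FPKM in Slit2-IR, with overlap. The part of these cell types in Nov was not tested, and in whole hearts more cells of a type and more RNA per cell cannot be told apart. Mean FPKM of Nov was 1.85-fold higher after IR in C57BL/6J and 1.55-fold higher in Slit2-Tg hearts. Over both genotypes the log2 difference was 0.51 (SE 0.15, limma p = 0.00713, adjusted p = 0.111, exact permutation p = 0.015). At this level the pseudocount of 1 FPKM shrinks the log2 difference, which was 0.73 by limma-voom on reads. The adjusted p was 0.0108 without C57-IR replicate 1 and 0.0441 from replicates 2 and 3 alone.

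Wisp2, the member without the cysteine knot, had its lowest group mean in C57-IR. It was at 6.23, 8.81 and 9.34 FPKM in C57-non-IR and at 3.87, 3.40 and 4.53 FPKM in C57-IR, with no overlap. In Slit2-Tg hearts it was at 6.11, 4.48 and 9.24 FPKM without ischemia and at 5.76, 4.71 and 5.88 FPKM after IR, and these groups overlapped. Mean FPKM after IR was 0.484 of the non-IR mean in C57BL/6J and 0.824 of it in Slit2-Tg hearts. The log2 difference over both genotypes was -0.54 (SE 0.15, limma p = 0.00419, adjusted p = 0.0816, exact permutation p = 0.03), and the adjusted p was 0.0360 without Slit2-non-IR replicate 2. In C57BL/6J alone it was -0.88 (SE 0.21, 95% interval -1.34 to -0.41, adjusted p = 0.117). In Slit2-Tg alone it was -0.20 (95% interval -0.66 to 0.27, adjusted p = 0.822).

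Wisp1, a Wnt target expressed by fibroblasts, was the lowest tested member, with 14 to 71 reads per library. It was at 0.181, 0.243 and 0.199 FPKM in C57-non-IR and at 0.156, 0.165 and 0.153 FPKM in C57-IR. It was at 0.280, 0.110 and 0.508 FPKM in Slit2-non-IR and at 0.437, 0.218 and 0.244 FPKM in Slit2-IR. The C57BL/6J groups did not overlap, although the C57-IR libraries held only 15 to 19 reads of this gene, and the Slit2-Tg groups overlapped. The log2 difference over both genotypes was -0.03 (SE 0.07, 95% interval -0.18 to 0.12, adjusted p = 0.916). The pseudocount of 1 FPKM shrinks the log2 differences of a gene at this level.

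Taken within 1 genotype, no IR difference of a member passed the correction. In C57-IR against C57-non-IR, limma called 0 of the 5 members, beside 0.459% of all tested genes, and limma-voom on reads called 0. At an unadjusted p under 0.05, 4 of the 5 passed (Cyr61, Ctgf and Nov higher, Wisp2 lower), beside 8.96% of all tested genes. The groups did not overlap for 4 members, beside 13.8% of all tested genes. The log2 difference was 1.17 (SE 0.28, adjusted p = 0.116) for Cyr61, 1.22 (SE 0.44, adjusted p = 0.394) for Ctgf and 0.58 (SE 0.22, adjusted p = 0.410) for Nov. Ctgf was called from replicates 2 and 3 alone (1.66, adjusted p = 0.0330), and Nov without C57-IR replicate 1 (0.85, adjusted p = 0.0419). Each member reached the smallest exact permutation p of 0.1 that 3 against 3 hearts allow, except Nov at 0.2.

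In Slit2-IR against Slit2-non-IR, limma called 0 of the 5, beside 0.525% of all tested genes, and limma-voom called 0. Cyr61 and Ctgf passed an unadjusted p under 0.05, beside 11.2% of all tested genes, and Cyr61, Ctgf and Nov did not overlap between groups, beside 16.9%. The log2 difference of Cyr61 was 1.25 (SE 0.28, adjusted p = 0.0774), that of Ctgf 1.48 (SE 0.44, adjusted p = 0.188) and that of Nov 0.43 (SE 0.22, adjusted p = 0.508). Same-numbered hearts of these 2 groups deviated together, and in a fit blocked on replicate number Cyr61 was called (adjusted p = 0.0351), as were 202 of all tested genes against 80 without the block. Cyr61 was also called when C57-IR replicate 2 was left out of the shared fit (adjusted p = 0.0387).

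**Figure D2:**
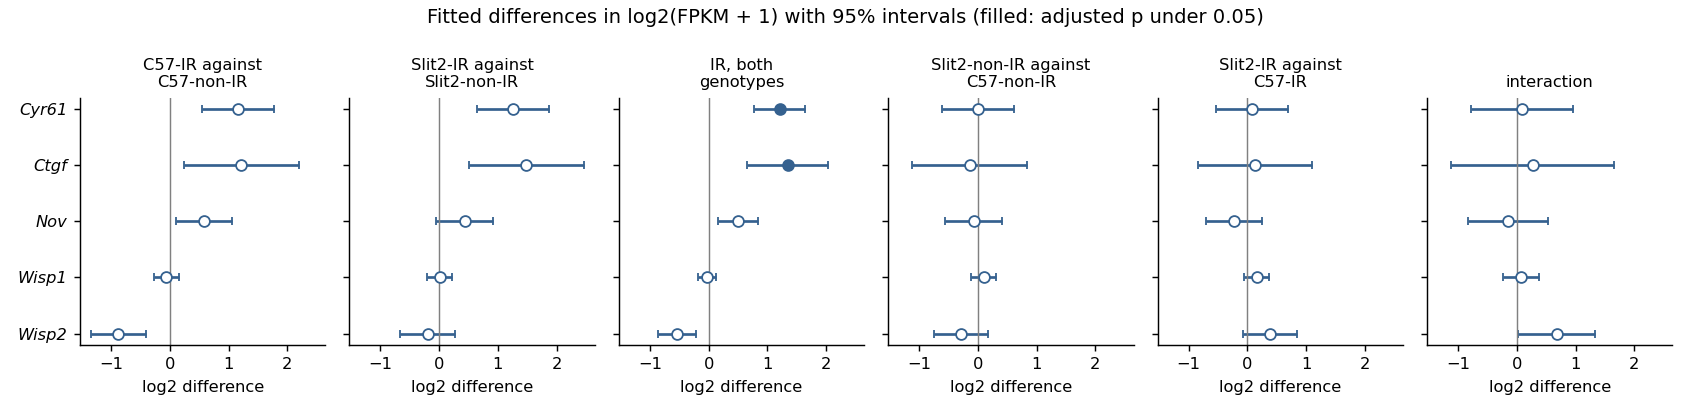
Fitted differences in log2(FPKM + 1) (horizontal axes) of the 5 genes in 6 comparisons, with 95% intervals, filled where the adjusted p is under 0.05. Cyr61 and Ctgf are filled in the IR comparison over both genotypes, the intervals between genotypes span 0, and the interaction interval of Wisp2 runs from 0.02 to 1.34.

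The second question was whether Slit2-Tg hearts differed from C57BL/6J hearts. No member differed between genotypes after correction, either without ischemia or after IR. In Slit2-non-IR against C57-non-IR, limma and limma-voom each called 0 of the 5, beside 0.0394% of all tested genes, and 0 passed an unadjusted p under 0.05, beside 3.19%. In that comparison the unadjusted limma p was under 0.05 in 1 of 21 alternatives for Wisp2 (0.0160, without Slit2-non-IR replicate 3). It was under 0.05 in 1 for Wisp1 (0.0384, without Slit2-non-IR replicate 2), and the adjusted p of both was 0.952 or more throughout. In Slit2-IR against C57-IR both tools again called 0, beside 0.0459%, and 0 passed unadjusted, beside 3.16%. Same-numbered hearts of these groups also deviated together, and with a block on replicate number 1 member, Wisp2, had an unadjusted limma p of 0.0436 (exact permutation p = 0.1 without the block) and an adjusted p of 0.999. The unadjusted limma p of Wisp2 was under 0.05 in 3 of 21 alternatives, lowest (0.0224) in the fit of only the groups compared. It was under 0.05 in 1 for Wisp1 (0.0480) and in 2 for Nov, lower in Slit2-IR (lowest 0.0174, without C57-IR replicate 1). Their adjusted p was 0.932 or more in all alternatives. For Cyr61 the log2 difference was -0.00 (95% interval -0.61 to 0.61) without ischemia and 0.09 (-0.53 to 0.70) after IR. For Ctgf it was -0.14 (-1.12 to 0.84) and 0.13 (-0.85 to 1.11). These intervals hold the differences compatible with 3 hearts a group, and they are not limits of detection.

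After IR, Wisp1 and Wisp2 were higher in each Slit2-IR heart than in each C57-IR heart, a pattern that 3.03% of tested genes showed in this direction. Wisp2 was 1.38-fold higher by mean FPKM (log2 difference 0.39, 95% interval -0.08 to 0.85, limma p = 0.0937, exact permutation p = 0.1). Wisp1 was 1.90-fold higher by mean FPKM (log2 difference 0.16, 95% interval -0.05 to 0.38, limma p = 0.121, exact permutation p = 0.1). Slit2-IR replicate 1, the library with 1650 FPKM of atrial markers, had the highest Wisp1 of its group, and without it the log2 difference was 0.09 (limma adjusted p = 1.0). The part of the atrial markers in this value was not tested.

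The third question was whether the IR difference itself depended on genotype. In the interaction, limma and limma-voom called 0 of the 5 members and limma called 0% of all tested genes, while 1 member, Wisp2, passed an unadjusted p under 0.05, beside 1.86% of all tested genes. The interaction of Wisp2 was 0.68 on the log2 scale (SE 0.30, limma p = 0.0439, adjusted p = 1.0, exact permutation p = 0.06), from an IR difference of -0.88 in C57BL/6J and -0.20 in Slit2-Tg hearts. The other 4 members had interactions of 0.09 for Cyr61 (95% interval -0.78 to 0.95), 0.27 for Ctgf (-1.11 to 1.65), -0.15 for Nov (-0.83 to 0.53) and 0.07 for Wisp1 (-0.23 to 0.37). The comparison of genotypes over both treatments likewise had 0 called by limma and by limma-voom, beside 0.131%, and 0 under an unadjusted p of 0.05, beside 4.13%. Its unadjusted limma p was under 0.05 in 1 of 20 alternatives for Wisp1 (0.00937, without Slit2-non-IR replicate 2). For Nov it was so in 1 (0.0348, without C57-IR replicate 1), and the adjusted p of both was 0.714 or more throughout.

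Cyr61, Ctgf and Nov varied together from heart to heart. Over the 12 libraries the Pearson correlation of log2(FPKM + 1) was 0.955 for Cyr61 with Ctgf (Spearman 0.944), 0.866 for Cyr61 with Nov (0.853) and 0.881 for Ctgf with Nov (0.881). After each group's mean was subtracted, the same correlations were 0.899, 0.818 and 0.816. Without the 2 libraries farthest from the median they were 0.937, 0.764 and 0.821. C57-IR replicate 2 was the highest and Slit2-non-IR replicate 1 the lowest library for all 3 genes. Wisp2 correlated with Cyr61 at -0.631, and at -0.167 within groups, so the relation was weaker within groups. Wisp1 and Wisp2 correlated at 0.546, and at 0.773 within groups. These are descriptions over 12 hearts that share groups, library scaling and depth.

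The same hearts were high or low for the immediate-early genes, mostly transcription factors, which cells induce first under stress. The mean log2(FPKM + 1) of 16 such genes ran from 4.93 in Slit2-non-IR replicate 1 to 7.54 in C57-IR replicate 2. Its correlation with Cyr61 was 0.992 over the 12 libraries, 0.986 without the 2 farthest libraries and 0.981 within groups. For Ctgf the correlations were 0.955, 0.921 and 0.878, and for Nov 0.875, 0.770 and 0.795. Wisp1 (-0.10, and -0.03 within groups) and Wisp2 (-0.63, and -0.20 within groups) did not follow this list upward.

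**Figure D3:**
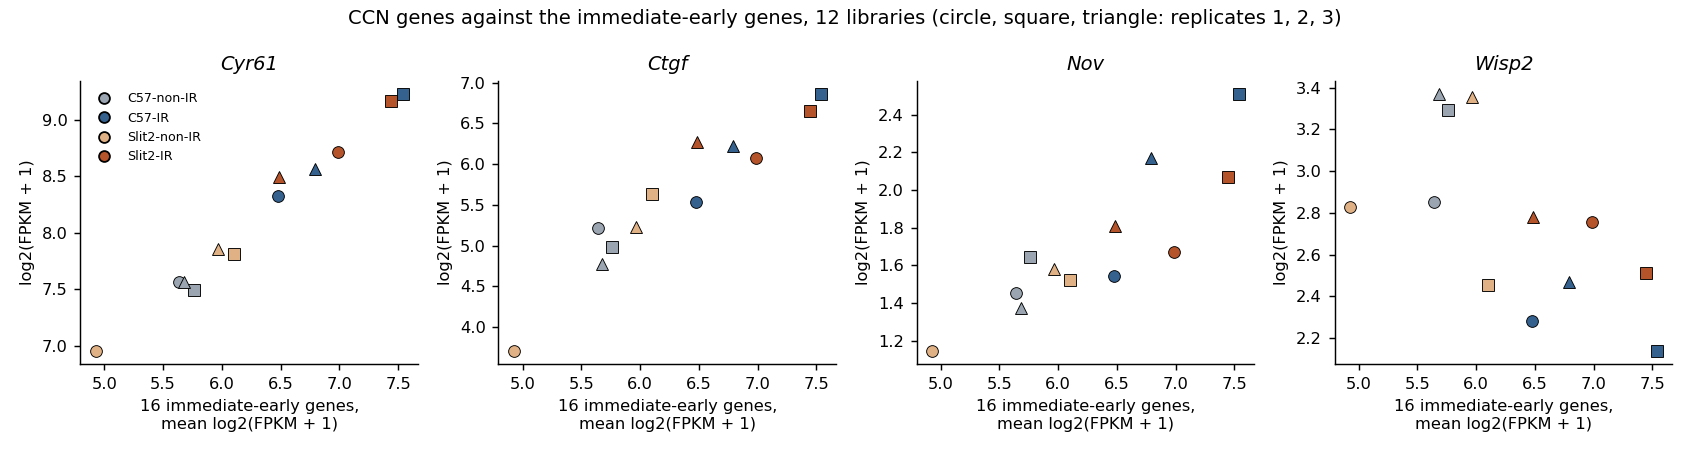
Level of 4 CCN genes (vertical axes, log2(FPKM + 1)) against the mean level of 16 immediate-early genes (horizontal axes, log2(FPKM + 1)) in the 12 libraries, coloured by group. Cyr61 lies close to a line through all groups (r = 0.992), and Ctgf and Nov scatter more. Wisp2 is lower where the list is higher over all libraries (r = -0.63), and less so within groups (r = -0.20).

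The 3 genes nearest to each member over the 12 libraries were sought among 13325 by Pearson correlation of log2(FPKM + 1), and Btg1 was the nearest to both Cyr61 and Ctgf. For Cyr61 they were Btg1 (0.989), Gadd45b (0.988) and Map3k8 (0.987), with Ctgf at rank 53. For Ctgf they were Btg1 (0.965), Junb (0.963) and Ppp1r15a (0.956), with Cyr61 at rank 5. For Nov they were Il10 (0.972), Il4ra (0.971) and Tpm3 (0.963). For Wisp1 they were Sorl1 (0.964), Ryr1 (0.931) and Lgi1 (0.883), and for Wisp2 Vmac (0.912), Tprn (0.907) and Zfp13 (0.893). Some of these genes were near the floor, with Il10 at 0.0368 to 0.890 FPKM, Ryr1 at 0.00232 to 0.111 FPKM and Lgi1 at 0.187 to 0.571 FPKM. By Spearman correlation 0 of the 3 nearest genes stayed the same for Cyr61, Ctgf and Wisp2, so these names depend on the measure.

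Of the pathways around the CCN proteins, the immediate-early genes held the most calls after IR. Among the 16 immediate-early genes, 9 were called higher and 0 lower over both genotypes, with a median log2 difference of 1.19, beside 2.34% of tested genes called higher and a median of 0.00 over all of them. The 9 were Fosl1, Jun, Junb, Egr1, Egr2, Atf3, Myc, Zfp36 and Nr4a1. Atf3, a stress-induced transcription factor, rose by 2.55 (SE 0.26, adjusted p = 0.000844) and Myc, a growth-promoting transcription factor, by 2.48 (SE 0.30, adjusted p = 0.00199). Both were also called within each genotype alone. Dusp1, a phosphatase that switches off stress kinases, differed by 0.01 (SE 0.16, adjusted p = 0.992) and was the sole member of the list with an unadjusted p above 0.05.

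Other targets of YAP/TAZ with TEAD had a median log2 difference of 0.05 in the IR comparison over both genotypes. Of 19 tested genes, 1 was called higher and 0 lower, beside 2.34% of all tested genes called higher, and 5 higher and 0 lower passed an unadjusted p under 0.05, beside 15.9% in either direction. The gene called was Gadd45a, a DNA damage and stress gene (0.83, SE 0.17, adjusted p = 0.0217), while Ankrd1, a stretch-responsive muscle gene, was at 0.78 (SE 0.29, adjusted p = 0.200). Of 17 Hippo pathway genes, which include Yap1, Wwtr1 and the TEAD factors, 0 were called by limma in either direction, 1 higher and 1 lower passed an unadjusted p under 0.05, and the median was 0.01. Of 16 SRF factors and targets, 3 were called higher and 0 lower, 7 higher and 1 lower passed unadjusted, and the median was 0.17. The 3 called, against the same 2.34%, were Srf itself (0.47, SE 0.10, adjusted p = 0.0231) and the cytoplasmic actins Actg1 (1.12, SE 0.16, adjusted p = 0.00443) and Actb (0.81, SE 0.16, adjusted p = 0.0184). The smooth muscle targets Acta2 and Tagln were at 0.01 and -0.02.

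Among 13 receptors and co-receptors of CCN proteins, 2 were called higher and 0 lower, with a median of 0.07, beside 2.34% of all tested genes called higher. They were Itga5, the alpha chain of the fibronectin receptor (0.74, SE 0.13, adjusted p = 0.00900), and Sdc4, syndecan-4, the heparan sulfate proteoglycan through which Cyr61 and Ctgf bind cells (1.12, SE 0.15, adjusted p = 0.00332). Sdc4 was also called in Slit2-IR against Slit2-non-IR (1.21, adjusted p = 0.0403). Among 16 matricellular and TGF-beta partners, 3 were called higher and 0 lower, with a median of 0.31, again beside 2.34%, and 2 of the 3 are given here. Thbs1, a matricellular protein that activates TGF-beta, rose by 2.78 (SE 0.43, adjusted p = 0.00523). The ligand Bmp2 rose by 1.20 (SE 0.18, adjusted p = 0.00443). The ligands Tgfb1 (0.33, adjusted p = 0.115) and Tgfb3 (0.37, adjusted p = 0.0971) did not pass.

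**Figure D4:**
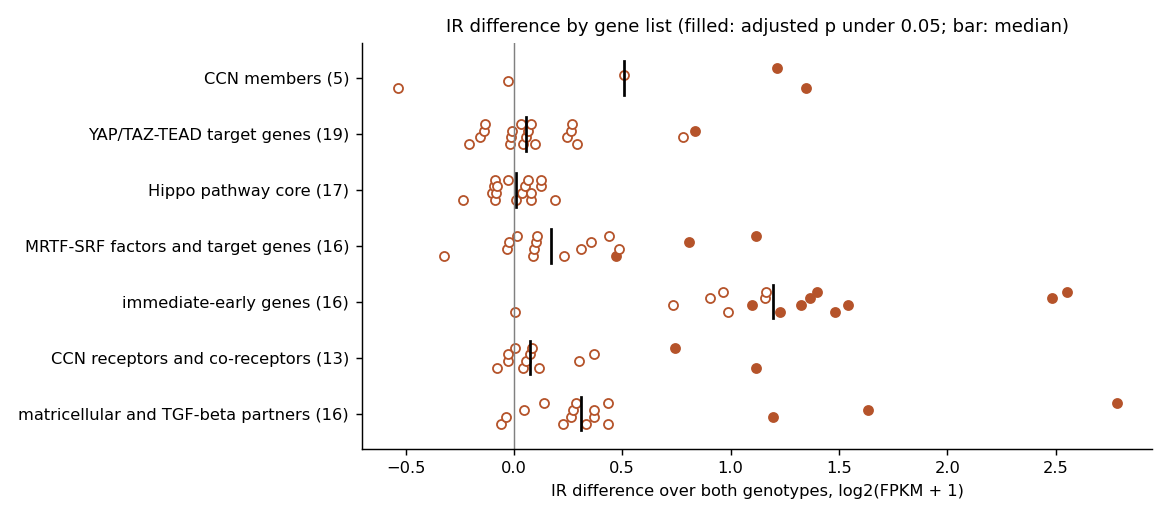
IR difference over both genotypes in log2(FPKM + 1) (horizontal axis) for the 5 CCN genes and 6 gene lists, 1 point per tested gene, filled where the adjusted p is under 0.05, with a bar at each list's median. The immediate-early genes have a median of 1.19 with 9 filled points, and the YAP/TAZ-TEAD targets a median of 0.05 with 1.

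Wisp2 was likewise set beside markers of the fibroblasts in which it is known to be expressed. The 8 fibroblast markers, which include Pdgfra, Tcf21 and Dcn, summed to 171 to 266 FPKM in C57-non-IR, 178 to 323 in C57-IR, 229 to 291 in Slit2-non-IR and 296 to 306 in Slit2-IR. None of them was at 0 in all libraries. Per 100 FPKM of these markers, Wisp2 was at 3.64, 3.40 and 3.51 FPKM in C57-non-IR and at 2.17, 1.08 and 1.40 FPKM in C57-IR. It was at 2.68, 1.54 and 3.5 FPKM in Slit2-non-IR and at 1.94, 1.54 and 1.98 FPKM in Slit2-IR. The ratio did not overlap between the C57BL/6J groups and overlapped between the Slit2-Tg groups. The 5 tendon and valve markers summed to 58.0 FPKM in Slit2-IR replicate 1 and to 4.07 to 17.8 in the other libraries, and their part in Wisp2 was not tested.

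The balance of Ctgf to Wisp2, members with opposed roles in fibrosis models, separated IR from non-IR hearts, and no test was run on it. Ctgf was higher and Wisp2 lower by mean after IR in these same hearts, so their ratio is not separate evidence. How often ratios of other genes separate these hearts was not computed. Ctgf FPKM per Wisp2 FPKM was 5.80, 3.49 and 2.83 in C57-non-IR and 11.7, 33.9 and 16.3 in C57-IR. It was 1.97, 10.8 and 3.94 in Slit2-non-IR and 11.6, 21.1 and 13 in Slit2-IR. The 6 IR hearts all lay above the 6 non-IR hearts, with Slit2-non-IR replicate 2 close below them. The balance of Cyr61 to Ctgf stayed between 4.62 and 10.2, with overlap between IR and non-IR hearts in each genotype.

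**Figure D5:**
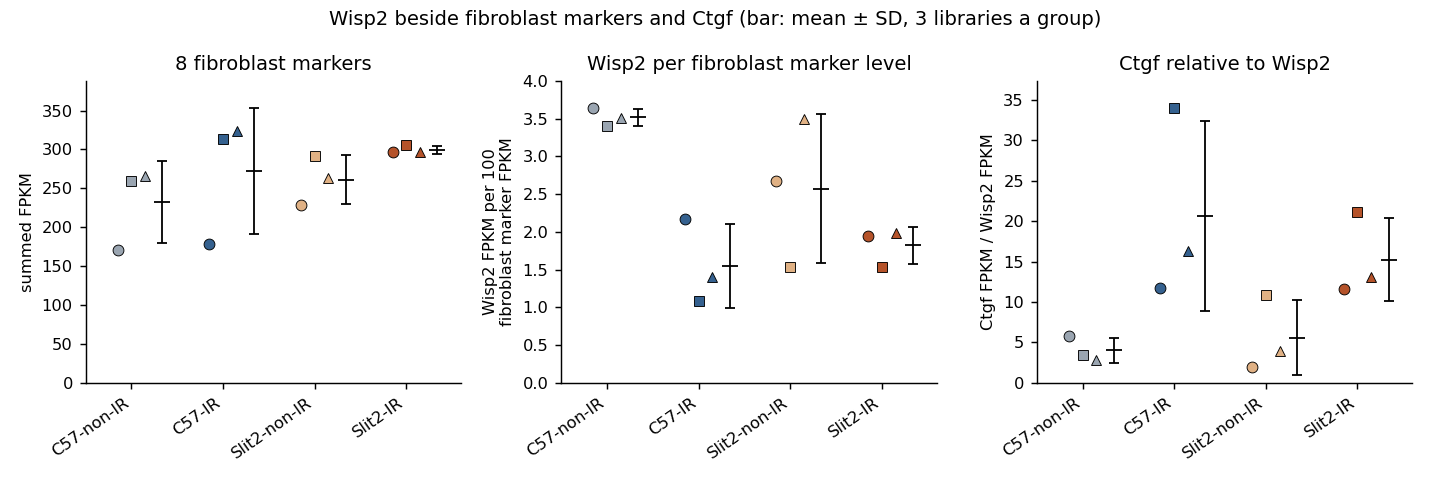
Summed FPKM of 8 fibroblast markers, Wisp2 FPKM per 100 FPKM of these markers, and Ctgf FPKM per Wisp2 FPKM (vertical axes, from 0) in the 12 libraries by group, with the mean ± SD. The C57-IR hearts (1.08 to 2.17) are below the C57-non-IR hearts (3.40 to 3.64) in Wisp2 per marker level, and the 6 IR hearts have the highest ratios of Ctgf to Wisp2.

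Because the Slit2-Tg line was made in oocytes of mixed strain, genes near the members were compared between genotypes over both treatments. Within 2 Mb of the start of Cyr61, 4 of 24 tested genes had an unadjusted p under 0.05, beside 4.13% of all tested genes, and 0 passed the adjusted threshold. Around the other members the counts were 0 of 17 for Ctgf, 0 of 10 for Nov, 0 of 10 for Wisp1 and 0 of 49 for Wisp2.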

How the data were processed

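RNA of 12 perfused hearts was sequenced after TRIzol extraction and NEBNext Ultra library preparation, and the submitters' processing notes name HISAT2 and the mm10 build; the counting tool is not given in the sources used here. The authors deposited FPKM values per gene in 1 table for each group. FPKM multiplied by gene length gave whole multiples of a constant within 0.01 for all values in each library, so reads per gene were recovered. These constants followed the inverse of median-of-ratios size factors, so the libraries had been scaled together and not each to its own total reads. Gene positions came with the tables and were compared with GENCODE M21, where 95.2% of shared genes had the same start and end.

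Genes were tested where 3 or more libraries reached a level worth 10 reads in a library of median depth, which left 15240 of 52858. Differences in log2(FPKM + 1) were tested with limma 3.58.1 in R 4.3.3, in 1 fit of the 4 groups with a variance trend, and p-values were adjusted by the Benjamini-Hochberg method over all tested genes. Two-sided exact permutation tests of single genes used Python 3.11.15. The script was tested on simulated data. Replicate numbers, taken from the titles, correlated above 0.1 for all 3 pairs in Slit2-IR against Slit2-non-IR (0.291, 0.294 and 0.143) and in Slit2-IR against C57-IR (0.285, 0.154 and 0.362), but not in the other 2 comparisons, so they were used as a block only as an alternative. Other alternatives were a pseudocount of 0.1, other filters, fits of only the groups compared, TMM scaling, a robust prior, limma-voom on the recovered reads, and leaving out each library. The fit of replicates 2 and 3 alone was added after seeing the data.

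The members and gene lists were chosen with earlier results of these data known. The genes named are the members, genes of the lists past the adjusted threshold with a few neighbours given by value, and the 3 genes nearest to each member. Ankrd1, Acta2, Tagln, Cnn1, Cnn2, Myl9, Dusp1, Tgfb1 and Tgfb3 were named after their values were seen. The values of 1 called gene of these lists are not reported here.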

Additional observations from a re-analysis of the deposited data

Results flagged for a closer look

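The IR difference of Wisp2 differed between genotypes at an unadjusted p under 0.05. The interaction was 0.68 on the log2(FPKM + 1) scale (SE 0.30, limma p = 0.0439, adjusted p = 1.0, two-sided exact permutation p = 0.06), so it failed the correction over all tested genes. Wisp2 was lower in all 3 C57-IR hearts than in all 3 C57-non-IR hearts, while the Slit2-Tg groups overlapped. The unadjusted p was under 0.05 in 10 of 20 alternatives and was lowest, 0.00388, without replicate 3 of the Slit2-non-IR hearts and highest, 0.109, without their replicate 2, the libraries with the highest and the lowest Wisp2 of that group. The adjusted p stayed above 0.99 in all 20.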

How the results depend on the processing

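The count of CCN genes called in the IR comparison over both genotypes was 2, became 1 when genes with low counts were added to the test, 4 with the replicate block, and 1 to 3 when single libraries were left out. In C57-IR against C57-non-IR the count of 0 became 2 with the replicate block (Cyr61 and Wisp2, both with an adjusted p of 0.0451), 1 from replicates 2 and 3 alone and 0 to 1 when single libraries were left out. In Slit2-IR against Slit2-non-IR it became 1 with the block (Cyr61, adjusted p = 0.0351) and 0 to 1 when single libraries were left out. The block raised Nov (adjusted p = 0.0270) and Wisp2 (0.0340) past the threshold over both genotypes, and changed no call of a member beyond these and those just given. In C57-IR against C57-non-IR the numbers gave no pairing (same-numbered hearts correlated at 0.295, 0.126 and 0.0833, and 2 of 6 correlated best with their own number), nor in Slit2-non-IR against C57-non-IR (0.324, 0.0377 and 0.105, and 2 of 6), while all 6 did so in Slit2-IR against Slit2-non-IR and in Slit2-IR against C57-IR. The cause of these changes was not tested, except that adding low genes tests 28242 genes and leaving out a library removes a heart.

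Direction was reversed for small log2 differences that had not passed the test. On leaving out single libraries, Slit2-IR against Slit2-non-IR ran from -0.10 to 0.12 for Wisp1 and -0.41 to 0.041 for Wisp2. Slit2-non-IR against C57-non-IR ran from -0.16 to 0.29 for Cyr61, -0.53 to 0.44 for Ctgf, -0.16 to 0.062 for Nov and -0.019 to 0.20 for Wisp1. Slit2-IR against C57-IR ran from -0.11 to 0.35 for Cyr61 and -0.21 to 0.46 for Ctgf, and the IR comparison over both genotypes from -0.080 to 0.031 for Wisp1. The interaction ran from -0.21 to 0.35 for Cyr61, -0.31 to 0.66 for Ctgf, -0.42 to 0.066 for Nov and -0.040 to 0.18 for Wisp1. Replicates 2 and 3 alone gave -0.072 for Wisp1 in Slit2-IR against Slit2-non-IR, 0.31 for Cyr61, 0.55 for Ctgf and 0.043 for Nov in Slit2-non-IR against C57-non-IR, and -0.068 for Cyr61 and -0.082 for Ctgf in Slit2-IR against C57-IR, and interactions of -0.38 for Cyr61 and -0.63 for Ctgf.

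Counts over all genes moved more. In C57-IR against C57-non-IR, 70 genes were called, 7 with low genes added, 9 from the 2 groups alone, 174 with the block, 32 by limma-voom, 175 from replicates 2 and 3 and 3 to 254 on leaving out single libraries. In Slit2-IR against Slit2-non-IR, 80 were called, 19 with low genes added, 202 with the block, 121 by limma-voom, 25 from replicates 2 and 3 and 4 to 180 on leaving out single libraries. Over both genotypes 532 were called, 299 with low genes added and 329 to 713 on leaving out single libraries. In Slit2-non-IR against C57-non-IR, 6 were called, and 0 to 14 over all alternatives. In Slit2-IR against C57-IR, 7 were called, and 3 to 12 over all alternatives. The interaction called 0, and at most 4. Genotype over both treatments called 20, and 6 to 30. Depth limits Wisp1 most among the tested members, with 14 to 71 reads per library.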
